A study of Mus musculus with 4 samples.

Results

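The genes described here encode the proteins that take actin filaments apart and recycle their subunits: the cofilins Cfl1 and Cfl2, destrin (Dstn), their helpers Wdr1 and Cap1, the monomer carrier Pfn1, the kinases Limk1 and Limk2 and the phosphatase Ssh1 that switch cofilin, and the severing protein gelsolin (Gsn). All probe sets that the platform annotation assigns to these 10 genes were taken, 28 of the 45101 on the array. The cells were basal keratinocytes of the epidermis, sorted on α6 integrin and YFP from mouse embryos of day E16.5. The 2 cKO samples (titles Ko_1210 and KO_1261) came from SRF fl/fl embryos that also carried ROSA26 YFP fl/fl and K14-Cre. The 2 het samples (het_1210 and het_1261) are SRF fl/+ with the same reporter and Cre, so the control cells may have lost 1 allele of Srf as well. The labels give only Rosa26 as strain for the het samples, and their Srf genotype comes from the titles and the series' design text, which calls this genotype WT. Cre was driven by the promoter of keratin 14, which is active in basal cells of stratified epithelia. Which part of Srf is floxed, what the numbers in the titles mark, and whether a sample is 1 embryo or a pool are not given in the sources used here. Same-numbered samples are called here the first pair (Ko_1210 and het_1210) and the second pair (KO_1261 and het_1261), although no label says that they pair embryos, and the spread between samples may be in part technical.

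Actin filaments grow at one end and are dismantled from the other. Cofilins and destrin bind aged filaments, bend and sever them. Wdr1, also called Aip1, binds cofilin-coated filaments and speeds their breakup, cyclase-associated protein Cap1 strips cofilin from the released monomers, and profilin loads monomers with ATP and feeds them to growing ends. LIM kinases phosphorylate cofilin near its first residues, which keeps it off actin, and slingshot phosphatases reverse this. Serum response factor (SRF), working with MRTF coactivators that sense the pool of free actin monomers, switches on many cytoskeletal genes by binding a DNA element called the CArG box. The study asks, by its title, what SRF does as embryonic epidermis differentiates, a tissue in which actin at the cell cortex sets cell shape and division angle. Arrays read transcripts, and say nothing of whether cofilin protein is phosphorylated.

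The label was checked first. The brighter Srf probe set had signals of 47.9 and 80.4 in Ko_1210 and KO_1261, against 834 and 1108 in het_1210 and het_1261. All 6 basal epidermal markers (among them Krt5, Krt14 and Trp63) were well above the filter on low signals described below. All 6 markers of suprabasal layers and all 7 of dermal fibroblasts lay above this filter too. The pairs differed technically. The poly-A control RNAs, added before labelling, were 2.80-fold (cKO) and 2.45-fold (het) higher in the first pair than in the second at 12 of 12 probe sets, and their cKO to het ratio was 0.904 within the first pair and 0.851 within the second. The hybridization controls were also higher in the first pair, 1.72-fold (cKO) and 1.81-fold (het), at 9 of 9 probe sets. Values are therefore given for each array and differences within each pair. The deposited signals had been scaled to 1 common trimmed mean per array, so a change in the total could not be read, and 2 samples per group limit the precision.

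The 10 genes were chosen on their signals in the cKO to het comparison, with its results known, so their values in it are a description, with no test. Differences are cKO minus het on the scale log2(signal + 1), given for the first pair before the second, and their mean is the fitted difference. Of the 28 probe sets, 24 had a mean log2 signal above the median of all probe sets (a signal of 65.9) and entered the fits, at least 1 for each gene. Below it lay 1 probe set each of Gsn, Limk1, Limk2 and Ssh1. Over all 28, 18 were lower in cKO within both pairs, 4 were higher within both and 6 had opposite signs. Of the 24 tested, 15 were lower within both pairs and 4 higher, where 29.1% and 26.3% of all tested probe sets were. Both cKO arrays lay below both het arrays at 7 of the 24 tested probe sets, and above at 0. Among all 22518 tested probe sets this held for 10.4% (below) and 7.91% (above). In limma without a block 0 of 22518 probe sets passed an adjusted p of 0.05, and 108 had an unadjusted p under 0.05. With the pair as a block 0.862% passed, among them 1 of the 24, the brightest probe set of Wdr1. For a member such a call is no test, as the members were chosen on this contrast. Differences below were fitted with all 4 arrays unless an array is named as left out. With an array left out, the groups hold the pairs unequally, so the difference between the pairs enters the mean.

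**Figure D1:**
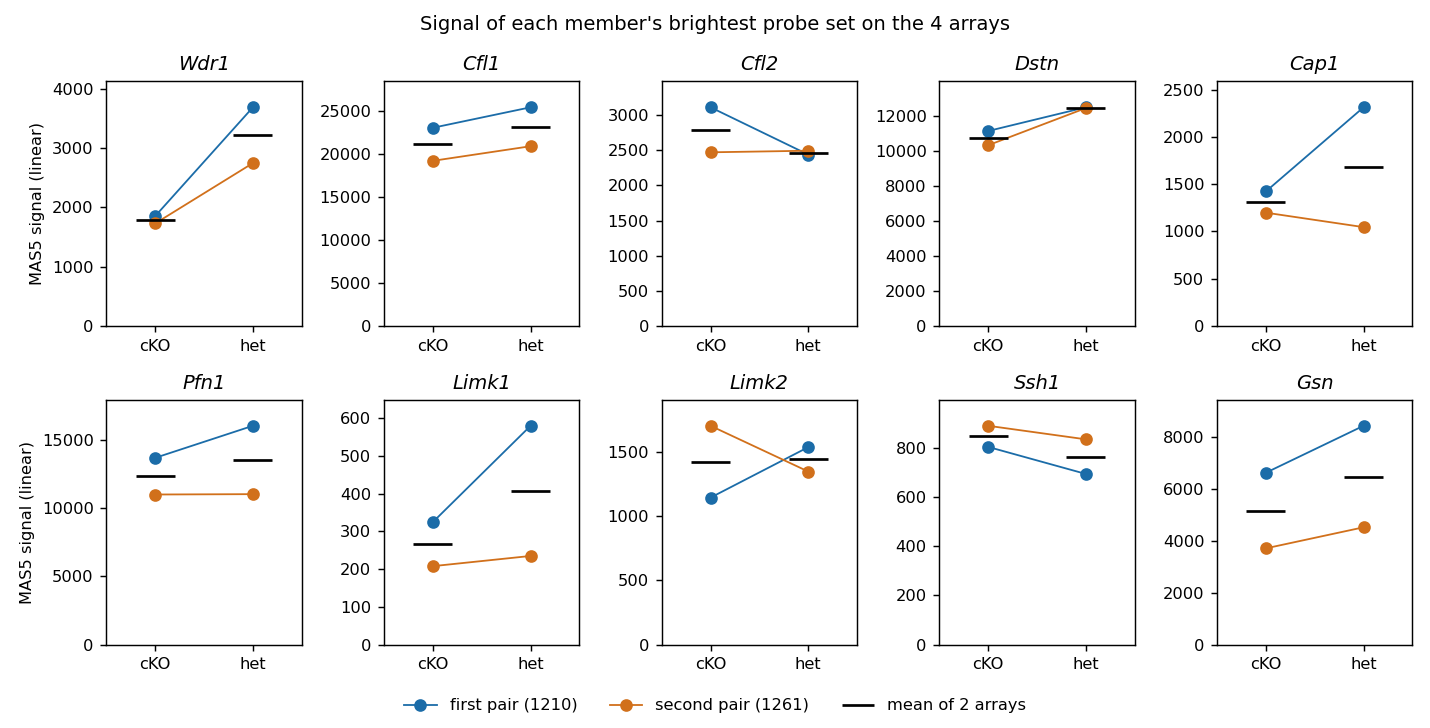
MAS5 signal (linear, from 0) of each gene's brightest probe set in cKO (left) and het (right). Points are single arrays, joined within a pair, and bars are means of 2 arrays. The Wdr1 signals sit at 1852 and 1729 in cKO, below 3687 and 2746 in het, whereas the Cap1 and Limk2 lines slope in opposite directions in the pairs.

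Wdr1 was lower in cKO, with no overlap of the groups, at all 3 of its probe sets. Its brightest probe set (1450851_at) had signals of 1852 in Ko_1210 and 1729 in KO_1261, against 3687 in het_1210 and 2746 in het_1261. Mean signals were 1791 ± 87.3 in cKO and 3217 ± 665 in het (SD, n = 2 each). The cKO signal was 0.502 of het within the first pair and 0.63 within the second. On the log2 scale these are differences of -0.99 and -0.67, with a mean of -0.83 (SE 0.25 without and 0.16 with the pair as a block). Both other Wdr1 probe sets separated the groups in the same way. Probe set 1423054_at had signals of 1021 and 806 in cKO and 1538 and 1283 in het, and 1437591_a_at had 337 and 403 in cKO and 557 and 683 in het. Their mean differences were -0.63 and -0.74. In bulk RNA, fewer cells that express a gene and less RNA per cell cannot be told apart. Without het_1210, the array with the highest Wdr1 signal, the mean difference of the brightest probe set was -0.62.

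The stretch before the start site of Wdr1 is shown because all Wdr1 probe sets were lower in the Srf cKO cells, together with the other member promoters that hold a CArG-like stretch. RefSeq start sites were found for all 10 genes, 15 in all, on GRCm38.p6. The CArG box, a run of A and T bases between CC and GG, spans 10 bases and reads the same kind of pattern on both strands. In the 250 bases before the start site, 0 of the 15 member promoters and 1.47% of all 32851 promoters held the full box. With at most 1 differing base it was found in 5 of the 15 (33.3%), against 18.6% of all promoters. Capitals mark the CArG-like bases, each with 1 base that departs from the box. The Wdr1 stretch is chr5:38561700-38561949 on the minus strand, and its capitals lie at -53 to -44 from the start site. The others are 50-base stretches around the match: Gsn at chr2:35256177-35256226 and Dstn at chr2:143915205-143915254 and Cfl1 at chr19:5490270-5490319 on the plus strand, and Limk2 at chr11:3356332-3356381 on the minus strand. These matches describe the letters and do not show binding.
Wdr1: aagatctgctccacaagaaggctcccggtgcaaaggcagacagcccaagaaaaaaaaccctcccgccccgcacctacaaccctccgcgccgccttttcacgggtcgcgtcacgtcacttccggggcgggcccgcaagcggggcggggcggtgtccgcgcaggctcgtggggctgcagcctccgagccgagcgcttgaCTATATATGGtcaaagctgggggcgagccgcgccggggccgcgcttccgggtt
Gsn: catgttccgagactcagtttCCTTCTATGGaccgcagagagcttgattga
Dstn: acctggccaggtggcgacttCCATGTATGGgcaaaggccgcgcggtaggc
Cfl1: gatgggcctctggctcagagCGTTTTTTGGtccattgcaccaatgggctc
Limk2: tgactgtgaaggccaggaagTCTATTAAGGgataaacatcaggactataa

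Of the cofilins, Cfl1 was nearly level between the groups. Cfl1, the main cofilin of non-muscle cells, had signals of 23068 and 19221 in cKO, against 25454 and 20922 in het, at its brightest probe set (1455138_x_at). The groups overlapped, and the differences were -0.14 and -0.12. Its other probe set (1448346_at) gave 0.02 and -0.15, and its mean of -0.06 became 0.06 under median centring of the arrays. The brightest probe set is of a type (suffix _x_at) that can also read related transcripts. Leaving out het_1210 gave Cfl1 a mean of 0.009.

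Dstn, which severs filaments and binds monomers much like cofilin, had signals of 11133 and 10320 in cKO and 12488 and 12444 in het. Both cKO arrays lay below both het arrays, although by little: the ratios were 0.892 within the first pair and 0.829 within the second. Cfl2, the cofilin best known from muscle, had signals of 3112 and 2471 in cKO and 2439 and 2494 in het at its brightest probe set, with differences of 0.35 and -0.01. Its second probe set also had opposite signs (0.21 and -0.19), with a mean that fell on either side of 0 with the scaling (0.13 under median centring, -0.02 under quantile normalization). The dimmest, with signals of 64.0 and 122 in cKO and 45.4 and 64.5 in het, was higher within both pairs (0.49 and 0.90), at signals where MAS5 values are noisy. Of the 6 muscle markers, Myh11, Myh3 and Tnnt3 lay below the filter, and the summed signal of the 6 was 603 and 759 in cKO and 854 and 788 in het.

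Cap1 and Pfn1, which hand monomers on, differed between the groups mainly within the first pair. The brightest Cap1 probe set (1417461_at) had signals of 1423 and 1199 in cKO, against 2314 and 1046 in het. The groups overlapped, with het_1261 the lowest array and het_1210 the highest, and the differences were -0.70 and 0.20. The other Cap1 probe set (1417462_at) had 469 and 376 in cKO and 996 and 481 in het, lower within both pairs at -1.09 and -0.35. Without het_1210 the mean of the brightest probe set turned to 0.32. Pfn1 had signals of 13693 and 11004 in cKO and 16046 and 11030 in het (1449018_at). Its difference was -0.23 within the first pair and -0.003 within the second, with a mean of -0.12 that became 0.006 under median centring, 0.15 without het_1210 and 0.04 without KO_1261.

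Of the enzymes that switch cofilin, Limk1 was lower in cKO within both pairs at each of its 3 probe sets, and Limk2 was not. Limk1 signals at the brightest probe set (1417627_a_at) were 325 and 208 in cKO, against 580 and 235 in het. The groups overlapped, and the difference was larger in the pair of het_1210, with -0.84 within the first pair and -0.18 within the second. Without het_1210 the mean was 0.14, because the groups then held the pairs unequally. The second probe set gave -0.31 and -0.54 from signals of 129 and 74.9 in cKO and 160 and 109 in het. The third lay below the filter, with signals from 7.66 to 48.8.

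Limk2 had signals of 1146 and 1706 in cKO, against 1540 and 1350 in het (1452060_a_at). Its differences had opposite signs, -0.43 and 0.34, and its mean of -0.04 became 0.08 under median centring, 0.05 without het_1210 and 0.24 without Ko_1210. The second probe set gave 0.03 and 0.13. The third, below the filter, gave -0.15 and -0.71.

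The probe sets of Ssh1, the phosphatase that reactivates cofilin, disagreed. The brightest (1455854_a_at) had 803 and 889 in cKO and 693 and 834 in het, higher within both pairs at 0.21 and 0.09, and the second gave 0.14 and 0.18. The other 2 were lower within both pairs. Probe set 1439237_a_at had signals of 49.8 and 96.6 in cKO and 123 and 142 in het, with differences of -1.29 and -0.56, and 1438253_at, below the filter, had -1.04 and -0.72. Both of these separated the groups, while both brighter ones overlapped. With all 4 probe sets averaged the difference was -0.37, against 0.15 at the brightest. Which transcripts of Ssh1 each probe set reads was not examined.

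**Figure D2:**
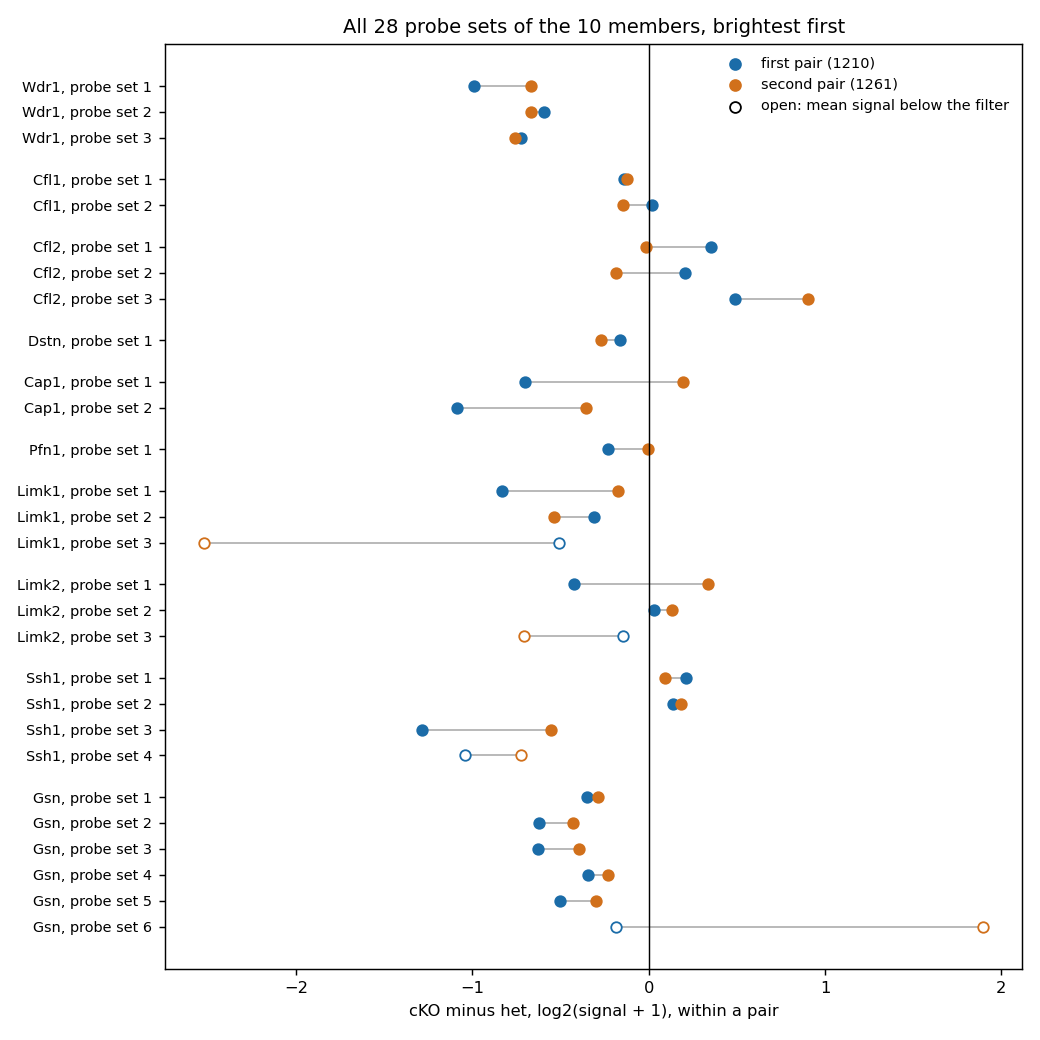
Difference cKO minus het (log2 scale, x axis) within each pair for all 28 probe sets, ordered by gene and then by signal. Open points have a mean signal below the filter. All 3 Wdr1 probe sets lie between -0.99 and -0.59, and the 4 Ssh1 probe sets fall on both sides of 0.

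Gsn, which severs and caps filaments when calcium rises and also exists as a secreted protein, was lower in cKO within both pairs at each of its 5 tested probe sets. The brightest (1456312_x_at) had 6614 and 3703 in cKO, against 8423 and 4514 in het. The groups overlapped, since each pair had its own level, and the differences of -0.35 and -0.29 were alike within the pairs. The 4 other tested probe sets gave -0.62 and -0.43, -0.63 and -0.39, -0.34 and -0.23, and -0.51 and -0.30. The sixth, with signals of 1.76 to 14.0, lay below the filter. Of the 5 tested probe sets, 4 have the suffix _x_at and can read related transcripts. Without het_1210 the mean of the brightest was 0.13, and without KO_1261 it was 0.10, because the groups then held the pairs unequally.

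Gelsolin is also abundant in fibroblasts. Of 7 dermal fibroblast markers, 5 were lower in cKO within both pairs and 1 higher. Their summed signal was 31753 and 32499 in cKO, against 39770 and 35097 in het. Dcn, the brightest, made up most of it, with 21841 and 18828 in cKO and 19907 and 19073 in het. The 5 lower markers were at 0.255 to 0.541 of het within the first pair and 0.727 to 0.897 within the second. Summed endothelial, immune and melanocyte markers, some below the filter, were at 0.502, 0.421 and 0.465 of het within the first pair. Within the second pair they were at 0.767, 0.913 and 0.991. The suprabasal markers, with 4 of 6 lower within both pairs, summed to 89857 and 71900 in cKO and to 142894 and 90443 in het. Their sum was highest in het_1210, where Lor and Ivl of this list were lowest. The summed basal markers were highest there too, at 150538, against 112408 in het_1261 and 145480 and 109421 in cKO. Krt5 and Krt14 made up most of this sum. Itga6 (6610) and Trp63 (8893) were instead lowest in het_1210, and Col17a1 (16953) and Itgb4 (3344) were highest in Ko_1210. The brightest probe sets of Wdr1, Cap1, Limk1, Gsn, Cfl1, Dstn and Pfn1 were highest in het_1210. The part of fibroblasts, suprabasal cells and other cell types in the differences of Wdr1, Cap1, Limk1 and Gsn was not tested.

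**Figure D3:**
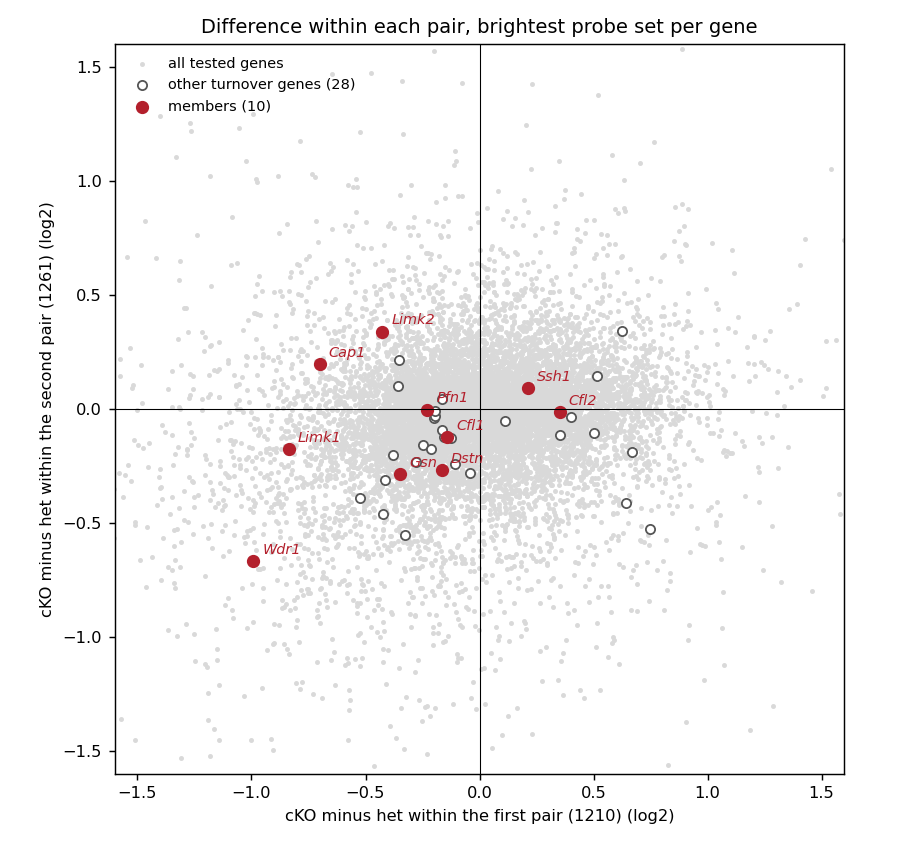
Difference cKO minus het (log2) within the first pair (x axis) and within the second (y axis), for the brightest probe set of each member (red), of 28 other turnover genes (open) and of all 11055 tested genes (grey, of which 147 lie outside the axes). Wdr1 lies farthest down the diagonal of the members, and Cap1 and Limk2 lie where the pairs have opposite signs.

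The difference between the pairs was not used to choose the genes and could be tested. It was fitted in limma with the group as covariate and adjusted over all tested probe sets, with 1 residual degree of freedom, and its error rests largely on the variance pooled over all probe sets. In the second pair, 8 of the 24 tested member probe sets were lower than in the first pair and 0 higher, where 14.7% of all tested probe sets were lower and 19.9% higher. The 8 belonged to Gsn (4 of 5), Cap1 (2 of 2), Limk1 (1 of 2) and Pfn1 (1 of 1). Counted by the brightest probe set, 4 of the 10 genes were lower and 0 higher. Among all tested genes 19.1% were lower and 12.8% higher. The brightest Gsn probe set averaged 4109 in the second pair and 7519 in the first, a difference of -0.87 ± 0.14 (SE, adjusted p = 8.09e-06). For Limk1 it was -0.97 ± 0.24 (adjusted p = 0.00197), for Cap1 -0.70 ± 0.19 (adjusted p = 0.00333) and for Pfn1 -0.43 ± 0.13 (adjusted p = 0.00994). Gsn and Limk1 thus differed more between the pairs than between cKO and het within them. The brightest Wdr1 probe set differed by -0.26 ± 0.16 (adjusted p = 0.206), less than its cKO to het difference within either pair, and the probe sets of the cofilins and Dstn did not pass. Under median centring the brightest probe sets of Wdr1 (-0.51, adjusted p = 0.0136), Cfl1 (-0.52, adjusted p = 0.00208) and Cfl2 (-0.40, adjusted p = 0.0480) passed as well. Fits with 1 array left out had no covariate, so the cKO to het difference enters their difference between the pairs. Without Ko_1210 this difference was -0.76 for Wdr1 and -0.34 for Cfl1, which is no test of the pairs alone. With no variance trend 2 of the 24 were lower, where 1.58% of all tested probe sets were. Under median centring 13 were lower, where 28.3% of all were, and this scaling shifted the median of all tested probe sets from 0.008 to -0.24. For the brightest Gsn probe set the call held in all 11 alternatives, for Limk1 in 8, and for Cap1 and Pfn1 in 6 each. These counts include the fits with 1 array left out, which mix pair and group. Limk1, Cap1 and Pfn1 did not pass in some of those fits. Limk1 and Cap1 differed by -0.55 and -0.35 without het_1210, and by -0.88 and -0.79 without KO_1261. Cap1 and Pfn1 differed by -0.60 and -0.43 without het_1261, and Pfn1 by -0.43 without KO_1261. With no variance trend Limk1, Cap1 and Pfn1 did not pass. Nor did Pfn1 under quantile normalization, in limma with the covariate (-0.13, adjusted p = 0.258). Under that scaling the differences of Cfl1 and Dstn turned to 0.06 and 0.22. The control RNAs differed between the pairs as given above, and so did Xist, the transcript of the inactive X chromosome, with signals of 22802 and 14338 in KO_1261 and het_1261, against 115 and 62.6 in Ko_1210 and het_1210. The Y-linked Eif2s3y had signals of 3.01 in KO_1261 and 834 in het_1261, against 1386 in Ko_1210 and 1485 in het_1210. It thus also differed between cKO and het within the second pair, where het_1261 held both transcripts. These transcripts mark the sex of cells, which thus differed between the pairs and between cKO and het within the second pair. The part of the control RNAs and of sex in the differences between the pairs and between cKO and het was not tested.

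**Figure D4:**
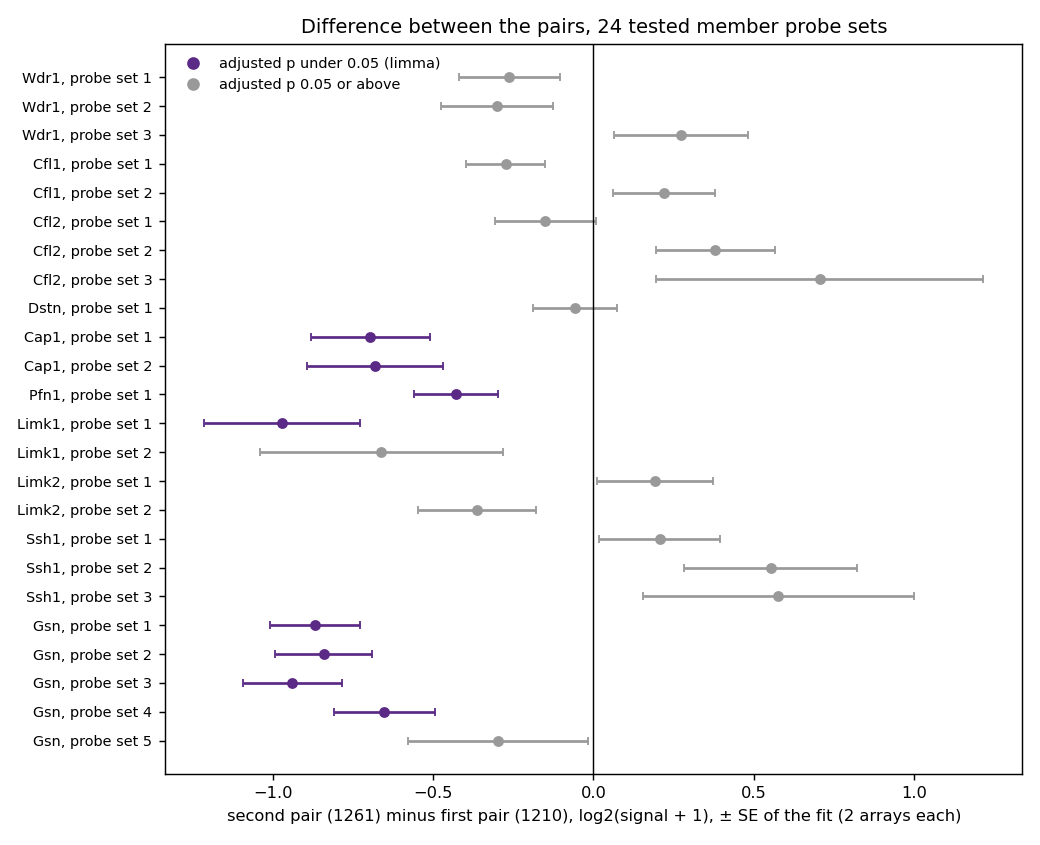
Difference between the pairs, second minus first (log2, x axis), with the SE of the fit, for the 24 tested member probe sets. Points below 0 are lower in the second pair. The 8 purple points passed an adjusted p of 0.05 and all lie below 0.

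A list of 36 other genes of filament turnover was set beside the members. Of these, 32 were on the array under 1 symbol and 28 were above the filter. In limma 0 of the 28 passed, with or without the pair as a block, and 0 had an unadjusted p under 0.05 without it. The mean difference was below 0 for 19 of the 28 and the median was -0.12 (-0.17 and -0.13), against 53.8% and a median of -0.02 for all tested genes. Under median centring the list's median was -0.002, where that of all tested probe sets moved from -0.007 to 0.11. Partners in disassembly and monomer binding had 8 of 9 below 0, severing and capping proteins 7 of 11, and regulators of cofilin phosphorylation 4 of 8.

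Coro1c, one of the coronins, which bind filaments and act with cofilin, had signals of 1312 and 1038 in cKO, against 1760 and 1428 in het, differences of -0.42 and -0.46. Its groups did not overlap. Twf2, a twinfilin that binds monomers and filament ends, had -0.52 and -0.39, and the phosphatase Ssh3 had -0.33 and -0.56. Only Pak2, a kinase upstream of LIM kinases, and the phosphatase Ssh2 were higher in cKO within both pairs among the 28, at 0.62 and 0.34 for Pak2 and 0.52 and 0.14 for Ssh2. Twf2 was lower (-1.01, adjusted p = 6.78e-05), and Ssh2 higher (1.08, adjusted p = 2.05e-05), in the second pair than in the first. Pak2 was higher too (0.50, adjusted p = 0.02). Over the list, 8 of 28 genes were lower and 3 higher in the second pair, where 19.1% of all 11055 tested genes were lower and 12.8% higher.

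The genes whose pattern over the 4 arrays came nearest to that of Wdr1 were named by the root mean square difference of log2 signals, each centred on its own mean. Of 11054 genes, 18 lay within 0.1 of Wdr1, where the median distance was 0.464. Among the nearest 5 were Sv2a (0.0405), a synaptic vesicle protein, Tfpi (0.0472), an inhibitor of tissue factor coagulation, Cnp (0.0547), a phosphodiesterase best known from myelin, and Csrp1 (0.0624), a LIM protein that bundles actin. Csrp1 had signals of 1127 and 977 in cKO, against 2032 and 1664 in het, and differences of -0.85 and -0.77 beside the -0.99 and -0.67 of Wdr1. Sv2a lay near the filter, with signals of 52.2 and 48.4 in cKO and 105 and 83.1 in het. With 4 arrays such likeness is a description of these samples.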

How the data were processed

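Total RNA of the sorted cells was isolated with Trizol and biotin-labelled with the 3 prime IVT express kit, per the labels' protocols. Deposited were linear intensity values for each probe set, which the authors computed with MAS5, per the submitters' processing notes. No MAS5 version is stated. The trimmed mean was 500 on each of the 4 arrays. Of 45101 probe sets, 64 controls were left out, and 34945 had 1 gene symbol in the platform annotation (34741 updated by Entrez identifier), 932 several and 9160 none.

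Values were taken as log2(signal + 1), with no further scaling. The 22518 probe sets above the median mean were fitted with limma 3.58.1 in R 4.3.3 (variance trend, two-sided, Benjamini-Hochberg adjustment, threshold 0.05), without a block and beside it with the pair (the recurring title number) as a block. The brightest probe set (by mean log2 signal) stood for a gene. The fits were tested on simulated data. Figures were drawn with matplotlib 3.10.9.

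The members and lists were chosen with earlier results of these data known. Named were all member probe sets, other turnover genes past the threshold or with the 3 largest differences of the same sign in both pairs per direction, and the 5 genes nearest to Wdr1, of which 1 is not reported here. The title numbers do not pair embryos by any label. Deviations of same-numbered arrays correlated at 0.755 across tested probe sets.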

Additional observations from a re-analysis of the deposited data

Results flagged for a closer look

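For 3 members the brightest probe set had differences of opposite sign within the pairs. Each pair held 1 array per group, so whether the cKO to het difference itself changed between the pairs was not tested. Cap1 was higher in cKO by 0.20 within the second pair and lower, at -0.70, within the first. Limk2 was higher by 0.34 within the second pair and lower, at -0.43, within the first. Cfl2 was close to 0 within the second pair, at -0.013, and higher by 0.35 within the first.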

How the results depend on the processing

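Alternatives changed the scaling, the pseudocount (16), the filter, the variance prior, the block, the probe set rule and the arrays used. For cKO against het, 0 probe sets passed without a block. With the replicate block 194 passed, and with it 276 under quantile normalization, 109 under median centring (74 higher and 35 lower, against 82 and 112 with the block alone) and 84 with a robust prior. No variance trend with the block gave 0. Leaving out single arrays gave 0 to 5. The cause of these gaps was not tested. The mean Wdr1 difference stayed between -1.04 and -0.62 in its 12 alternatives. Those that changed only the block, the filter or the variance prior could not move a mean difference. Calls of members in these fits are no test, since the members were chosen on this contrast. Gsn 1437171_x_at had a mean difference of -0.53 under quantile normalization with the block, against -0.52 without this scaling. At the brightest probe sets, Dstn stayed below 0 and Cfl2 above 0 in all 12, although Cfl2 was at 0.003 without Ko_1210. Cap1, Cfl1, Gsn, Limk1, Limk2, Pfn1 and Ssh1 changed sign in at least 1. No other turnover gene passed in any alternative. Between the pairs 7788 probe sets passed (4470 higher and 3318 lower in the second pair), 2728 with no variance trend and 2470 to 9628 with 1 array left out, fitted without the covariate. The split was 3010 higher and 6370 lower under median centring, and 3833 and 4280 under quantile normalization. With 1 array left out, the groups hold the pairs unequally.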
